A study of Mus musculus with 2 samples.

Results

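The Eph receptors and ephrins examined here were the receptors Ephb2, Ephb3, Ephb4, Ephb6, Epha1 and Epha2 and the ligands Efna1, Efna4, Efnb1 and Efnb2. Members were matched by gene symbol in the table of read counts, where 9 of the 10 genes had a row among 19294 listed genes. Ephb6, NCBI gene identifier 13848, had no row, and its level is not known here. The table lists no gene with a count of 0.

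mRNA-seq was performed on mouse intestinal organoids (mIOs), which are epithelial cultures grown from intestinal crypts in Matrigel. Both cultures carried Lgr5-EGFP-IRES-creERT2, an allele that places EGFP and a tamoxifen-dependent Cre at the Lgr5 locus of stem cells, and both were kept in medium with EGF, Noggin and R-spondin. The control group was 1 culture labelled control and the DSS group was 1 culture exposed to dextran sulfate sodium (DSS), a polymer used to injure intestinal epithelium, for 4 days, and both are labelled as day 4. The labels call the cells intestinal stem cells. The labels give neither the age nor the sex of the animals, nor the DSS dose of the sequenced culture. The comparison asks how the transcripts of this family differed between injured and control mIOs.

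Eph receptors are receptor tyrosine kinases, and ephrins are their ligands on neighbouring cells. Ephrin-A ligands are held in the membrane by a lipid anchor and ephrin-B ligands by a transmembrane segment, and binding sends signals into both cells that change adhesion and the actin cytoskeleton. In the intestine, EphB2 and EphB3 are known as crypt proteins whose genes respond to WNT and TCF signaling, while ephrin-B ligands are stronger toward the villus, and this opposition keeps the cell types of the crypt in their positions.

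All 3 listed EphB receptors were lower in the DSS library, by 2.02- to 3.21-fold. The ligand Efnb2 and the receptor Epha1 were higher, by 3.91-fold and 3.77-fold. Efnb1, the other ephrin-B ligand, had almost the same scaled count in both libraries. The ephrin-A ligands diverged, since Efna4 was 3.29-fold lower and Efna1 was 1.48-fold higher. Each group is 1 library, so no test was possible, no difference has a replicate check, and the 95% intervals below cover counting error only.

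The control library summed to 65493032 counts and the DSS library to 59746968. TMM factors, which correct these totals for genes that take an unequal share of a library, set the scale, and levels are counts per 1000000 scaled counts (CPM). A value called a log2 ratio is the scaled count of the DSS library over that of the control library, on the log2 scale, followed in brackets by its 95% counting interval. Of 17235 genes that reached 10 counts in either library, 19.6% were at a log2 ratio of 1 or more and 19.9% at -1 or less, the 2-fold lines used here. The median log2 ratio of these genes was -0.04. Scaled by totals alone, this median moved by -0.27, and the share of higher genes among those past the 2-fold lines was 37.1% in place of 49.7%. In the control library the crypt base stem cell markers summed to 1113 CPM and the enterocyte markers to 3314 CPM, so markers of cells other than the labelled ones were read there too. All 10 crypt base stem cell markers and 9 of 10 cycling cell markers were past the line downward in the DSS library, and all 12 enterocyte markers were past it upward.

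Of the 9 listed members, 2 were past the line upward, against 19.6% of all genes, and 4 were past it downward, against 19.9%. Together 6 of 9 were past one of the lines, against 39.5% of all genes. The median log2 ratio of the members was -0.26. These shares describe a family chosen with earlier results of these data known.

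**Figure D1:**
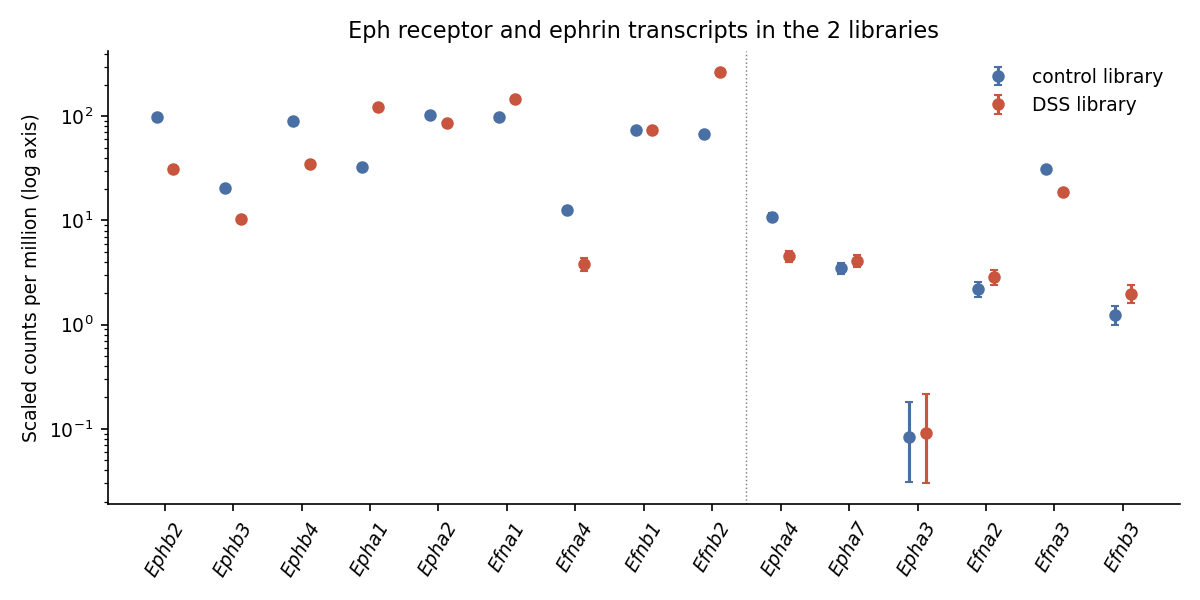
Levels in CPM of each listed Eph receptor and ephrin in the control and DSS libraries, on a log axis, with 95% counting intervals, where the dotted line separates the 9 members from the 6 other listed genes of the family. Points are to be compared within a gene, and Efnb2 and Epha1 stand higher in the DSS library while Ephb2, Ephb3, Ephb4 and Efna4 stand lower.

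To show the start regions of genes that moved in opposite directions, the bases just upstream of the RefSeq transcription start are given for the 2 members that were higher by more than 2-fold and for the crypt receptors Ephb2 and Ephb3. The sequences are RefSeq promoters of the build GRCm38.p6, written 5′ to 3′ on the strand of the gene and ending before the annotated transcript, which leaves 210 bases for Ephb3. Capitals mark a match to GGAATG, the motif of TEAD factors, or to its reverse complement.
Epha1 (chr6:42373269-42373518, minus strand): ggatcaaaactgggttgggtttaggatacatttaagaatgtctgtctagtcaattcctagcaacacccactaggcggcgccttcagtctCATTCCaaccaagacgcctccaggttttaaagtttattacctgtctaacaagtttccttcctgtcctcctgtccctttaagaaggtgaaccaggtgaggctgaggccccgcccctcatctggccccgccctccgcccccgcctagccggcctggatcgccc
Efnb2 (chr8:8661243-8661492, minus strand): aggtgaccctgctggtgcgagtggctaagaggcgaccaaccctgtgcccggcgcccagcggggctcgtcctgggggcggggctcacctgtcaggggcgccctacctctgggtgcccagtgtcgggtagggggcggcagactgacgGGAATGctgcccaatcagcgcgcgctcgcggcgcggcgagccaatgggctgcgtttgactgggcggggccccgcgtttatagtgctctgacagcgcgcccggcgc
Ephb2 (chr4:136836013-136836262, minus strand): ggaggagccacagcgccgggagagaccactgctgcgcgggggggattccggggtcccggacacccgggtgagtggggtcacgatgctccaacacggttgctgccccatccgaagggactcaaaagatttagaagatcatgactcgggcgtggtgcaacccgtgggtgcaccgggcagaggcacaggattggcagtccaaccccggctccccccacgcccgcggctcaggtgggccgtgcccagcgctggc
Ephb3 (chr16:21204545-21204754, plus strand): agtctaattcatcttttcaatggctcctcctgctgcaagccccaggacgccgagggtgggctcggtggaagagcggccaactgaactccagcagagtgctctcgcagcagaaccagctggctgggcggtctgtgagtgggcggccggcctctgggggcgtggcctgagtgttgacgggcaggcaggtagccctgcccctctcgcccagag

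Both strands of the 250 upstream bases were searched for CTTTGA (TCF/LEF), TGGGAA (RBPJ) and GGAATG (TEAD). Of 32851 RefSeq promoters, 13.8% held CTTTGA, 21.6% held TGGGAA and 12.6% held GGAATG. All 10 members had a promoter entry. GGAATG was matched in 3 members, Epha1, Epha2 and Efnb2. Epha2, whose sequence is not printed, held 2 matches and had a log2 ratio of -0.26. A link between this motif and the direction of change was not tested. The match of Efnb2 began 105 bases upstream of the start and that of Epha1 began 161 bases upstream, on the reverse strand. CTTTGA was matched in Epha2 alone and TGGGAA in Efnb1 alone. The other 6 members, among them all 4 EphB receptors, had no match in this window, which says only that these letters are not there.

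Ephb2, a receptor of the crypt base and of transit cells, was counted 7143 times in the control and 1681 times under DSS. This was 99.2 CPM against 30.9 CPM, a log2 ratio of -1.68 (-1.76 to -1.60). Among all genes compared, 9.24% had a lower log2 ratio. The gene lies on chromosome 4, from 136647539 to 136835988 on the minus strand in the GRCm38 annotation.

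Ephb3, which acts with Ephb2 in placing Paneth cells at the crypt base, was counted 1491 times in the control and 557 times under DSS. The scaled levels were 20.7 CPM and 10.3 CPM, and the log2 ratio was -1.01 (-1.16 to -0.87). The interval reached across the 2-fold line. With DESeq2 size factors the log2 ratio was -0.97, which left 3 members past the line downward. The gene is on chromosome 16, from 21204755 to 21223305 on the plus strand.

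Ephb4, best known as the venous partner of Efnb2 in blood vessels, was counted 6498 times in the control and 1900 times under DSS. Its scaled level was 90.2 CPM in the control and 35.0 CPM under DSS, for a log2 ratio of -1.37 (-1.44 to -1.29). It lies on chromosome 5, from 137350109 to 137378669 on the plus strand, and its end overlaps the opposite-strand gene Zan by 33 bases. The 3 EphB receptors did not differ by one factor. The ratio of Ephb2 to Ephb3 counts, which does not depend on library scaling, was 4.79 in the control and 3.02 under DSS, a log2 change of -0.67 (-0.83 to -0.50). Ephb2 was also lower relative to Ephb4, by a log2 change of -0.31 (-0.42 to -0.21).

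The lower level of Ephb2 and Ephb3 stood beside lower markers of the cells known to carry them. The 10 crypt base stem cell markers summed to 1113 CPM in the control and 181 CPM under DSS, with a median log2 ratio of -3.66. The 9 listed Paneth cell markers summed to 1202 CPM and 420 CPM, and 6 of them were past the 2-fold line downward and none upward. Within the stem cell list, Lgr5 had 18849 and 1048 counts and its log2 ratio was -3.76, while Smoc2 was at -1.23, above the ratio of Ephb2. In bulk RNA, fewer cells of a type and less RNA per cell cannot be told apart, and the part of these cells in the EphB ratios was not tested.

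**Figure D2:**
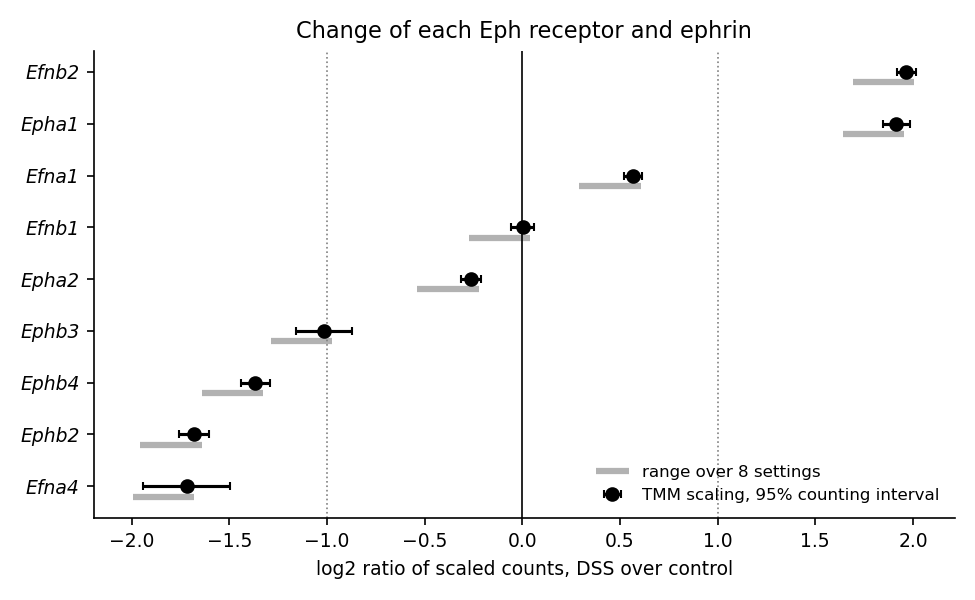
Log2 ratio of scaled counts, DSS over control, for the 9 listed members, with 95% counting intervals as black bars and the range over 8 processing settings as grey bars, and dotted lines at 2-fold. The 3 EphB receptors and Efna4 lie at the low end, Epha1 and Efnb2 near 2 at the high end, and only the grey bars of Efnb1 cross 0.

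Epha1, a receptor for ephrin-A ligands, was counted 2355 times in the control and 6704 times under DSS. It stood at 32.7 CPM in the control and 123 CPM under DSS, a log2 ratio of 1.92 (1.85 to 1.98). Among all genes compared, 91.4% had a lower ratio. Epha1 lies on chromosome 6, from 42358487 to 42373268 on the minus strand, and its gene body overlaps the opposite-strand gene Zyx by 1727 bases. Zyx had 3922 and 7815 counts and a log2 ratio of 1.40. The library kit keeps the strand of the RNA, but the strand setting of the counting is not given in the sources used here, so shared reads in the overlap are possible.

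Epha2, an EphA receptor of many epithelia, was counted 7436 times in the control and 4677 times under DSS. Its levels were 103 CPM and 86.1 CPM, with a log2 ratio of -0.26 (-0.32 to -0.21). Epha2 was thus within 2-fold, and the 2 EphA receptors went in opposite directions. The ratio of Epha1 to Epha2 counts changed from 0.317 in the control to 1.43 in the DSS library, a log2 change of 2.18 (2.09 to 2.26). Epha2 lies on chromosome 4, from 141301240 to 141329384, on the plus strand.

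Among the ligands, Efnb2 was counted 4887 times in the control and 14413 times under DSS. This transmembrane ligand of EphB receptors and of EphA4 stood at 67.9 CPM and 265 CPM, a log2 ratio of 1.97 (1.92 to 2.01). It was the highest ratio of the 9 members, and 91.7% of all genes compared were lower. Efnb2 is on chromosome 8, from 8617434 to 8661242 on the minus strand.

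Efnb1, a ligand of Ephb2 and Ephb3, was counted 5361 times in the control and 4050 times under DSS. Its scaled levels were 74.4 CPM and 74.5 CPM, and its log2 ratio of 0.00 had an interval from -0.06 to 0.06. The sign of this ratio depended on the scaling, which gave -0.27 with total counts and 0.04 with DESeq2 size factors. The gene is on chromosome X, from 99136130 to 99148991 on the plus strand. The ratio of Efnb2 to Efnb1 counts was 0.912 in the control and 3.56 under DSS, a log2 change of 1.96 (1.89 to 2.04).

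Efna1, a lipid-anchored ligand that binds Epha1 and Epha2, was counted 7045 times in the control and 7873 times under DSS. It stood at 97.8 CPM and 145 CPM, a log2 ratio of 0.57 (0.52 to 0.61). It was above 0 under every scaling tried and within 2-fold. Efna4, a lipid-anchored ligand with lower counts, was counted 898 times in the control and 206 times under DSS. It stood at 12.5 CPM and 3.79 CPM, and its log2 ratio of -1.72 (-1.94 to -1.50) was the lowest of the members.

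Efna1, Efna3 and Efna4 follow one another within 66.3 kb of chromosome 3, on the minus strand, with no other protein-coding gene of the annotation lying wholly between them. Efna1 spans 89271733 to 89281142 and Efna4 spans 89333390 to 89338028. Efna3, which lies between them from 89313899 to 89322965, had 2229 and 1017 counts and a log2 ratio of -0.73. The 3 neighbours therefore held log2 ratios of 0.57, -0.73 and -1.72 in their order on the chromosome. The ratio of Efna1 to Efna4 counts was 7.85 in the control and 38.2 under DSS.

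EphB receptors and ephrin-B ligands bind each other, so their balance was compared within each library, where scaling has no effect. The ratio of Ephb2 to Efnb1 counts was 1.33 in the control and 0.415 under DSS, a log2 change of -1.68 (-1.78 to -1.59). For Ephb3 over Efnb1 the log2 change was -1.02 (-1.17 to -0.86). Measured against Efnb2, the change was -3.65 for Ephb2, -2.98 for Ephb3 and -3.33 for Ephb4. With TMM scaling Efnb1 was nearly level, so the change against it was about that of the receptor alone, while the change against Efnb2 held both a lower receptor and a higher ligand.

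Summed per kb of the longest annotated transcript, the 3 EphB receptors stood at 34.3 CPM per kb in the control and 13.1 CPM per kb under DSS. The 2 ephrin-B ligands stood at 37.0 and 78.2 CPM per kb. The receptor-to-ligand ratio was thus 0.925 in the control and 0.167 under DSS, 5.55-fold lower, a log2 change of -2.47. Per kb of coding length the ratio was 0.507 in the control and 0.0764 under DSS, so its level depended on the length used more than its change, which was then -2.73. The largest share of the ephrin-B level passed from Efnb1, at 61.7% in the control, to Efnb2, at 70.8% in the DSS library.

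The EphA receptors summed to 36.4 CPM per kb in the control and 59.7 CPM per kb under DSS. Epha1 made up 27.5% of this level in the control and 63.1% under DSS. The ephrin-A ligands Efna1 and Efna4 summed to 67.7 and 91.2 CPM per kb, of which Efna1 made up 88.5% and 97.4%. The 4 ligands together went from 105 to 169 CPM per kb.

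**Figure D3:**
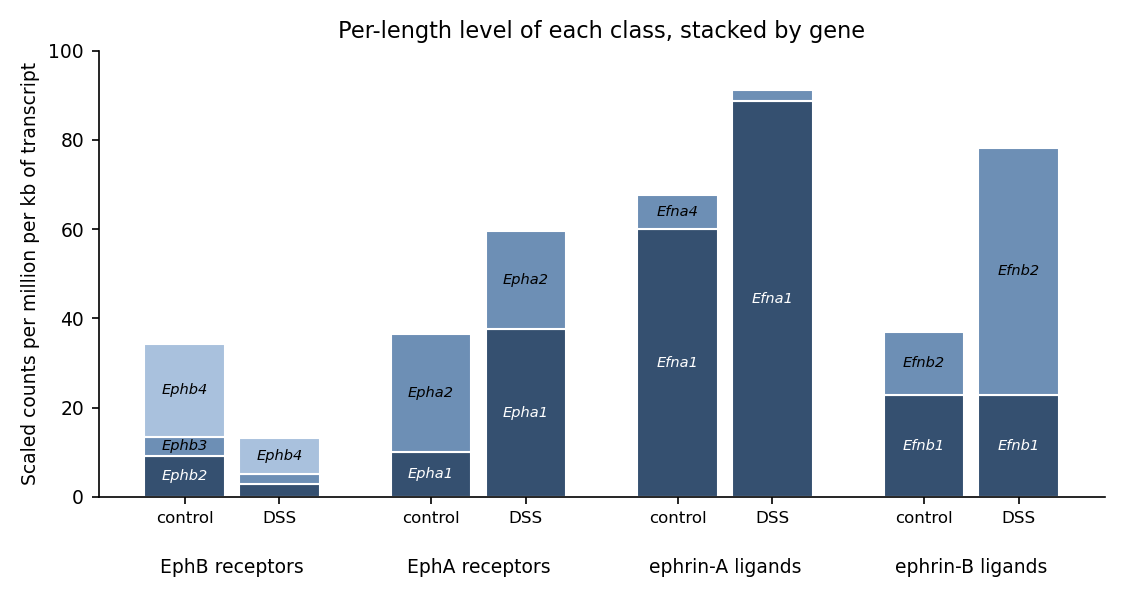
Stacked bars of the CPM per kb of transcript in the control and DSS libraries, for the EphB receptors, EphA receptors, ephrin-A ligands and ephrin-B ligands, with each segment 1 gene. The EphB bar is lower in the DSS library (34.3 against 13.1) and the ephrin-B bar is higher (37.0 against 78.2), with Efnb1 segments of nearly equal height.

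By level per kb of transcript, Efna1 stood highest of the members in both libraries, at 59.9 CPM per kb in the control and 88.8 under DSS. Per kb of coding length, Efnb2 stood above Efna1 under DSS, at 263 against 236 CPM per kb. Per kb of transcript in the control, Efna1 was followed by Epha2 at 26.4, Efnb1 at 22.8 and Ephb4 at 20.8 CPM per kb. Lower in the order were Efnb2 at 14.2, Epha1 at 9.99, Ephb2 at 9.10, Efna4 at 7.80 and Ephb3 at 4.36 CPM per kb. The counting intervals of these neighbours did not overlap. In the DSS library Efna1 was followed by Efnb2 at 55.3, Epha1 at 37.7, Efnb1 at 22.9, Epha2 at 22.0 and Ephb4 at 8.06 CPM per kb. The last 3 places were held by Ephb2 at 2.84, Efna4 at 2.37 and Ephb3 at 2.16 CPM per kb. There the intervals of Efnb1 and Epha2 overlapped, as did those of Ephb2 and Efna4 and those of Efna4 and Ephb3. The longest transcript of Ephb2 has 10902 bases and that of Ephb4 has 4340, and per kb of coding length Ephb2 stood above Ephb4 in the control, at 33.5 against 30.2 CPM per kb, so the order of these receptors, like the top place under DSS, rests on the length chosen.

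The family has 12 further genes, of which Epha3, Epha4, Epha7, Efna2, Efna3 and Efnb3 had a row and Ephb1, Epha5, Epha6, Epha8, Epha10 and Efna5 had none. Epha4, an EphA receptor that also binds ephrin-B ligands, was counted 783 times in the control and 245 times under DSS, a log2 ratio of -1.27 (-1.48 to -1.06). It was the only one of the 5 genes compared that was past a 2-fold line. Efnb3 was higher at 89 and 107 counts, a log2 ratio of 0.67 (0.25 to 1.09). Efna2 had a log2 ratio of 0.38. Epha7 had 250 and 224 counts and a log2 ratio of 0.25 whose interval, from -0.02 to 0.51, included 0. Epha3 had 6 and 5 counts, too few to compare.

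**Figure D4:**
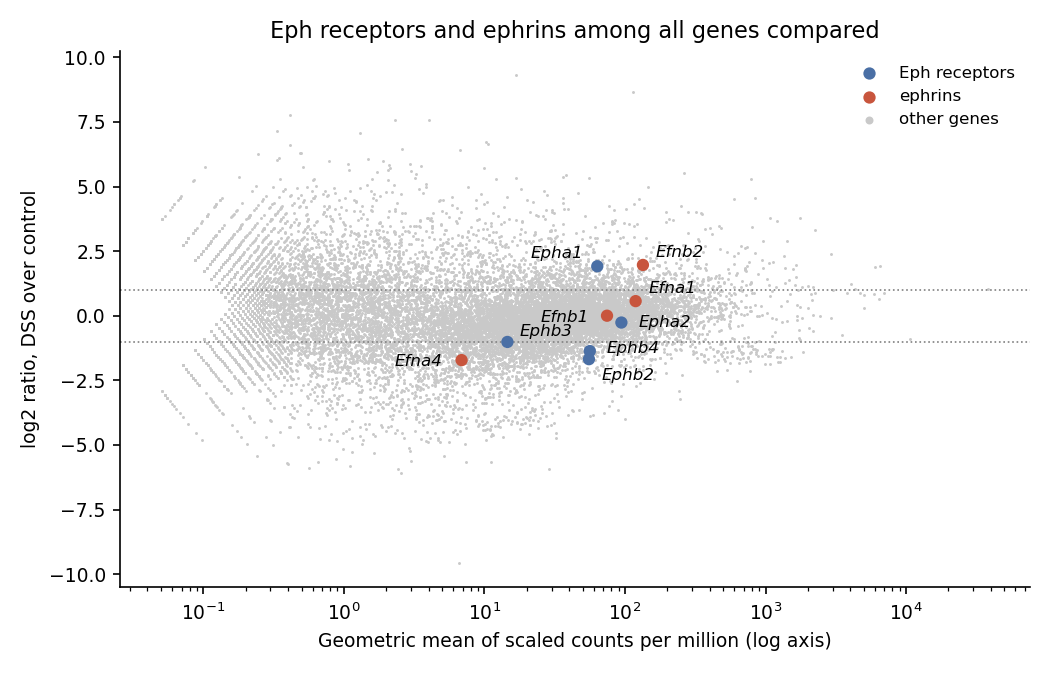
Log2 ratio, DSS over control, against the geometric mean of the CPM of both libraries on a log axis, for 17235 genes (grey), Eph receptors (blue) and ephrins (red), with dotted lines at 2-fold. The members lie among well-counted genes, with Epha1 and Efnb2 above the upper line and Ephb2, Ephb4, Ephb3 and Efna4 at or below the lower line.

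Genes that carry the signal of Eph receptors and ephrins inside the cell, or act on these proteins, were read against the 39.5% of all genes past a 2-fold line. Of 23 compared adaptors and kinases that bind these proteins, 21 were within 2-fold, 2 were past the line downward and none upward, and their median log2 ratio was -0.11. The scaffold gene Grip1, which binds the tails of ephrin-B ligands, had 84 and 20 counts and a log2 ratio of -1.66. Dvl2, a WNT signal carrier that also binds ephrin-B, was at -1.07, and Pard6b, a cell polarity gene, at 0.95. Sla had no row, and Anks1b had too few counts.

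Of 24 regulators and effectors of small GTPases, which turn Eph signals into changes of actin, 3 were past the line upward and 1 downward, with a median log2 ratio of 0.33. Tiam1, an exchange factor for Rac that binds EphB and ephrin-B proteins, had 2212 and 184 counts and its log2 ratio was -3.18 (-3.41 to -2.96). Kalrn, an exchange factor that acts with EphB2 in neurons, had 517 and 2904 counts and its log2 ratio was 2.90 (2.76 to 3.03). Rock2, a kinase that raises actomyosin contraction, was at 1.34. The remaining gene past the line upward was Chn1, a Rac regulator named here after its values were seen, with 8 and 24 counts.

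Of 17 proteases and phosphatases that cut or dephosphorylate Eph receptors or ephrins, 15 were within 2-fold. Ptpro, a phosphatase of Eph receptors, had 383 and 25 counts and its log2 ratio was -3.53 (-4.18 to -2.95). Ptprj, another receptor phosphatase, was at 1.25. Adam10, the protease known to shed ephrins, was chosen after its values were seen and had 13020 and 7413 counts, a log2 ratio of -0.41.

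Among 26 compared receptor tyrosine kinases of other families, 10 were past the 2-fold line upward and 3 downward, with a median log2 ratio of 0.47. These were 38.5% and 11.5% of the list, against 19.6% and 19.9% of all genes. Tek, the angiopoietin receptor, had 12 and 97 counts and stood at 3.42, and Ret, the receptor of the GDNF family, was at 2.91, with 584 and 3306 counts. Ptk7 at -2.86, Fgfr4 at -2.25 and Tyro3 at -1.74, named after their values were seen, were the 3 past the line downward, on the side of the EphB receptors. Among 31 guidance genes outside the Eph family (semaphorins, plexins, netrins, slits and their receptors), 5 were past the line upward and 6 downward. At 16.1% and 19.4% of the list, these were near the shares of all genes. Sema3e, with only 8 and 72 counts, was at 3.58, Sema6a at 3.30 and Sema4c at -2.47. No difference between these lists and the Eph genes was tested.

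**Figure D5:**
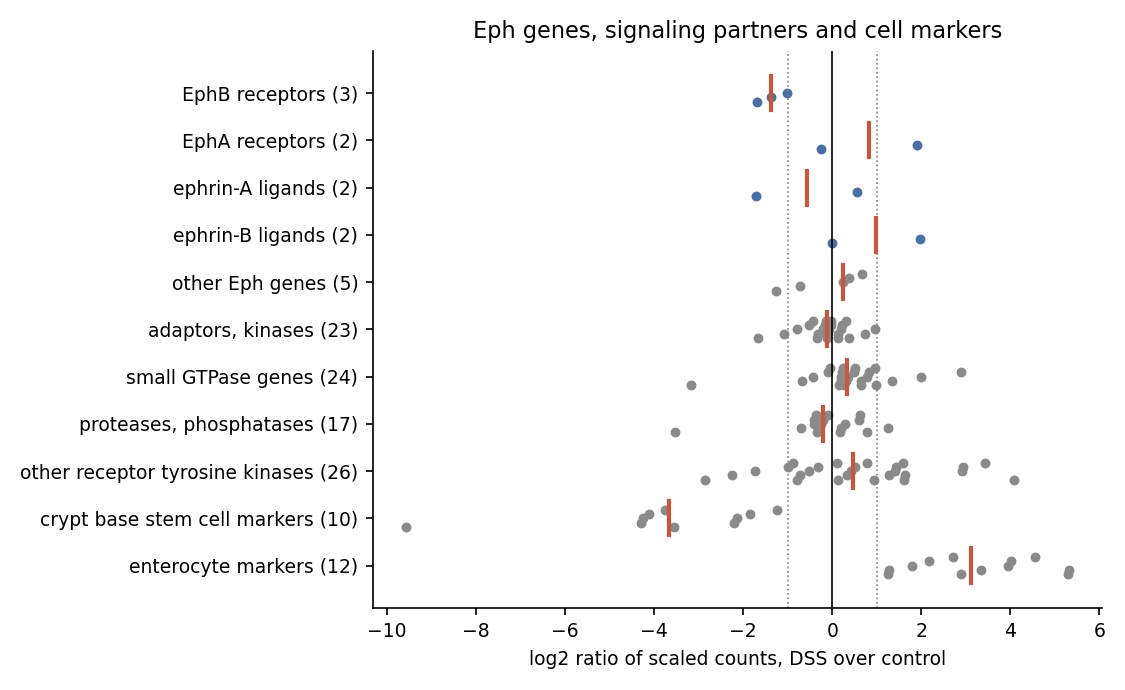
Log2 ratio, DSS over control, of each gene compared (points) and the median (red bar) for the Eph and ephrin classes, their signaling partners, other receptor tyrosine kinases and 2 marker lists, with the number of genes in brackets and dotted lines at 2-fold. The EphB receptors lie on the side of the crypt base stem cell markers, while most adaptors, proteases and phosphatases lie between the dotted lines.

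Efnb2 and Epha1 were higher beside higher markers of mature epithelial cells. The 12 enterocyte markers summed to 3314 CPM in the control and 26631 CPM under DSS, with a median log2 ratio of 3.11 and the lowest at 1.26. The 8 goblet cell markers summed to 861 and 11783 CPM and the 10 enteroendocrine markers to 877 and 4613 CPM, and all of them were past the 2-fold line upward. Of these markers, Vil1, Muc2 and Chga had log2 ratios of 1.27, 4.99 and 2.62. By RT-PCR of DSS-treated mIOs, the paper instead reports these genes as little changed. The reason for this difference was not tested. The part of mature epithelial cells in the Efnb2 and Epha1 ratios was not tested either. The 7 listed tuft cell markers summed to 9.40 and 5.23 CPM, with Gfi1b not listed.

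Ephb4 and Efnb2 are also genes of blood vessels. Of 12 endothelial markers, Cdh5, Kdr, Flt1, Emcn, Plvap and Cldn5 had no row, and the 6 listed ones summed to 18.6 CPM in the control and 9.05 CPM under DSS. Egfl7 and Esam held most of these sums, with log2 ratios of -1.58 and -1.92. Tek, Tie1 and Pecam1 (the last 2 named after their values were seen) were past the line upward, at 3.42, 2.94 and 2.60. Their counts were low, at 12 and 97, 5 and 29, and 12 and 55. The part of vessel cells in the Ephb4 and Efnb2 ratios was not tested. Of 10 mesenchymal markers 5 were listed, which summed to 6.62 and 36.3 CPM, of which Vim held 5.19 and 34.2 CPM, while Col1a2, Col3a1, Dcn, Lum and Des had no row. Of 10 immune markers 5 were listed, at 14.2 and 25.1 CPM in all, and Ptprc, Cd3e, Cd3g and Adgre1 were among those with no row. The 4 listed of 8 neuronal markers summed to 10.1 and 69.2 CPM, of which Ret held 8.11 and 60.8 CPM, while Uchl1, Prph and Stmn2 were among those with no row.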

How the data were processed

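The deposited values are read counts for each gene in both libraries, which the authors made from stranded poly(A) libraries. The submitters' processing notes name HISAT2 and StringTie, while their versions and roles, the genome build and the counting settings are not given in the sources used here. Files named as FPKM held the same counts and were not used. Counts were scaled with TMM factors (1.10 for control and 0.909 for DSS) in edgeR 4.0.16 under R 4.3.3, and the exact Clopper-Pearson 95% intervals of log2 ratios, the exact Poisson intervals of levels and the intervals of Fisher's conditional odds ratio for pairs of genes cover counting error only. Intervals of pairs of genes, like all others, hold for these 2 libraries. With 1 library per group, neither a test nor a p-value was possible, and how far cultures of a group vary is not known here.

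Members and gene lists were chosen with earlier results of these data known. The lists, written by hand, were 3 lists of signaling partners, the other Eph genes, other receptor tyrosine kinases, other guidance genes and 11 cell type lists. Named were the members, the other listed Eph genes, and from each partner or comparison list the 3 genes that reached 50 counts in a library and had the log2 ratios farthest from 0, and further genes are marked where they were chosen later. Some genes that this rule names are not reported here. From each cell type list, the 3 genes with the most counts could be named, and most are given as sums only.

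Lengths and gene positions came from GENCODE vM21 (GRCm38), with a length for 92.1% of the genes tested, and promoters from RefSeq (GRCm38.p6). A planned comparison of protein sequences was not run. The computation was tested on simulated counts, where 100% of 200 changed genes among 17056 were past the 2-fold line in the right direction. The changes were set well past that line, in well-counted genes and with counting error alone, so this result was largely fixed in advance. Far fewer genes changed there than were past the lines in the data. The test thus checks neither genes near the line, such as Ephb3, nor the scaling of these data. Alternatives were a prior count of 2, other count minimums, a thinned control library, upper quartile factors, DESeq2 1.42.0 size factors and totals alone. Intervals and figures were made in Python 3.11.15 with scipy 1.17.1, pandas 2.3.3, numpy 2.4.6 and matplotlib 3.10.9.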

Additional observations from a re-analysis of the deposited data

How the results depend on the processing

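Under all 7 alternatives, Epha1 and Efnb2 stayed at a log2 ratio of 1 or more (1.64 to 1.96 and 1.69 to 2.01), and Ephb2, Ephb4 and Efna4 stayed at -1 or less. Ephb3 ranged from -1.29 to -0.97, and with DESeq2 size factors or upper quartile factors 3 members in place of 4 were past the line downward. Efnb1 ranged from -0.27 to 0.04. Total counts lowered all 9 members by the same amount, and the median of the members was then -0.54. The log2 change of the EphB to ephrin-B ratio was -2.72 with counts not divided by length and -2.73 per kb of coding length, an alternative chosen after seeing the data. It was -2.46 with the length of the transcript paired with a RefSeq accession, also chosen after seeing the data. The alternative without Ephb6 was not run, since that gene has no row. No replicate could be left out with 1 library per group. No paired analysis was possible because each group is 1 library without a replicate number. Depth limits Epha3, at 6 and 5 counts, which was not compared.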
